A study of Homo sapiens with 9 samples.

Results

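Mitochondrial ribosomal protein genes encode the proteins of the ribosome that works inside mitochondria. They were found by matching the Ensembl identifiers of the deposited counts to GENCODE release 29 and keeping every protein-coding gene with an MRPL or MRPS symbol followed by a number, together with DAP3. This gave 79 genes of the 58395 identifiers. By symbol, 49 belonged to the large subunit (MRPL) and 30 to the small subunit (29 MRPS genes and DAP3). All 79 passed the low-count filter and were among the 16761 genes tested.

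RNA was sequenced from MDA-MB-231, an established human triple-negative breast cancer line, 96 h after reverse transfection with a non-targeting control siRNA (siNC) or with one of 2 siRNAs against ZIP7 (siZIP7_1 and siZIP7_2). ZIP7, the product of SLC39A7, moves zinc out of the endoplasmic reticulum. Each siRNA had 3 libraries, 9 in all, with 24153785 to 30454419 reads counted on genes per library, and the cells were otherwise untreated and kept in DMEM with serum. The labels do not say whether the libraries of a group came from separate cultures, so p-values measure the spread between these libraries, which may be technical. The model is limited to 1 cell line and to transient knockdown, and siRNAs can act on transcripts other than their target.

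The libraries held 24153785 to 30454419 reads assigned to genes. Levels are given as CPM, each gene's count scaled to a common library size with TMM factors from edgeR. SLC39A7 was at 321, 343 and 322 CPM in siNC, 35.4, 32.9 and 38.6 CPM in siZIP7_1 and 20.5, 19.5 and 17.6 CPM in siZIP7_2. Its log2 fold change against siNC was -3.203 (adjusted p = 7.38e-27, SE 0.06) with siZIP7_1 and -4.098 (adjusted p = 1.16e-28, SE 0.06) with siZIP7_2, from the quasi-likelihood test of edgeR, adjusted by Benjamini-Hochberg over all genes, which gives every adjusted p below. Of the receptors that define triple-negative tumours by their absence, PGR and ESR1 were below 1 CPM in every library, while ERBB2 mRNA was at 75.6, 71.7 and 75.2 CPM in siNC. The mesenchymal marker VIM was at 5567, 5688 and 5333 CPM in siNC, 2636, 2808 and 2618 CPM in siZIP7_1 and 2816, 2937 and 2935 CPM in siZIP7_2. The epithelial marker CDH1 was low, at 0.466 CPM on average in siNC, 4.18 in siZIP7_1 and 0.998 in siZIP7_2, and EPCAM, another, was at 6.57, 9.68 and 4.42 CPM. On the log2 scale VIM fell by 1.04 with siZIP7_1 and by 0.93 with siZIP7_2, CDH1 rose by 3.14 and 1.07, and EPCAM rose by 0.56 and fell by 0.57, so these markers moved beside the members, and their part in the members' levels was not tested. All these marker genes were chosen after the counts were seen.

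The mitochondrial ribosome translates the few proteins that the mitochondrial genome encodes, all of them subunits of the oxidative phosphorylation complexes or of ATP synthase. Its rRNAs come from mitochondrial DNA, whereas its proteins are encoded in the nucleus, made in the cytosol and imported. Some of these proteins descend from those of bacterial ribosomes and others exist only in mitochondria. The large subunit joins amino acids and lets the growing chain out through a tunnel at the inner membrane, and the small subunit decodes the mRNA.

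Most mitochondrial ribosomal protein genes were lower with either siRNA. With siZIP7_1, 54 of 79 fell, 4 rose and 21 did not pass an adjusted p of 0.05, with a median log2 fold change of -0.27. With siZIP7_2, 61 fell, 9 rose and 9 did not pass, with a median of -0.52, which is 0.697 times the siNC level. Both comparisons use the same siNC libraries and are given side by side for that reason.

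These counts stand on a wide background. With siZIP7_1, 70.7% of all tested genes passed the threshold, 34.8% higher and 35.9% lower, while 5.06% of the members were higher and 68.4% lower. With siZIP7_2, 77.8% of all genes passed, 38.5% higher and 39.3% lower, against 11.4% and 77.2% of the members. The share of members that passed in either direction, 73.4% with siZIP7_1 and 88.6% with siZIP7_2, was thus nearer to the background than their split by direction. The medians over all tested genes were -0.00691 with siZIP7_1 and -0.00178 with siZIP7_2.

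When a change had to exceed 1.2-fold (edgeR's glmTreat), 34 members were lower and 1 higher with siZIP7_1, where 25.7% and 25.4% of all genes were lower and higher. With siZIP7_2, 54 members were lower and 7 higher, where the shares of all genes were 30.8% and 30.5%. Many of the falls with siZIP7_1 were therefore small.

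**Figure D1:**
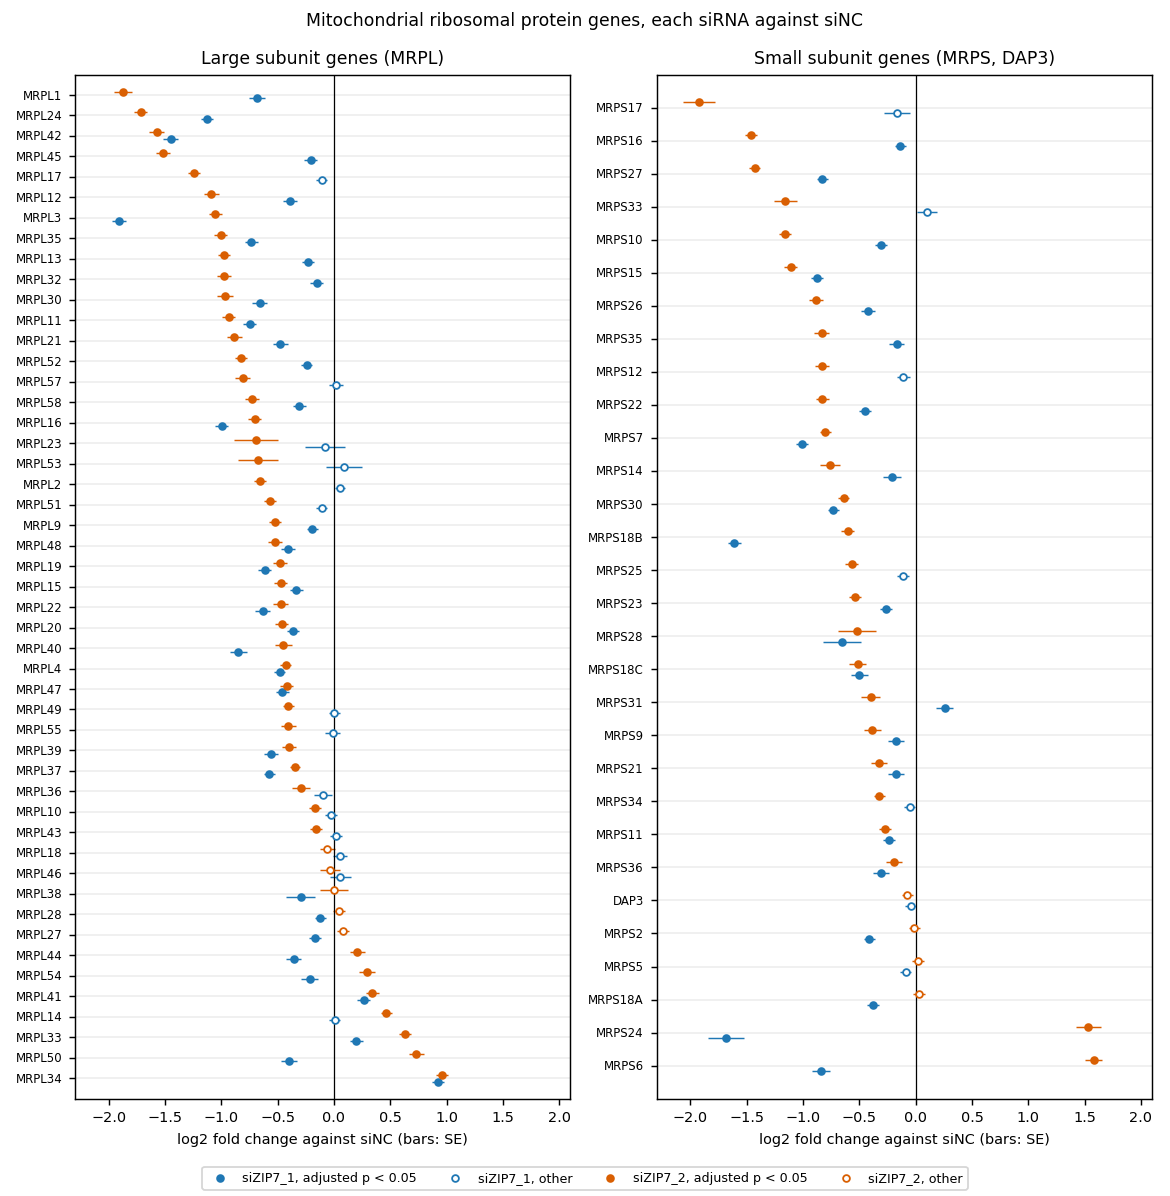
Log2 fold change against siNC (x axis, with standard errors) of each mitochondrial ribosomal protein gene, large subunit on the left and small subunit on the right, ordered by siZIP7_2 (orange) with siZIP7_1 in blue; filled points have an adjusted p under 0.05. Most points lie left of 0, MRPL34 lies near 1 with both siRNAs, and MRPS24 and MRPS6 lie on opposite sides of 0.

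Both subunits moved in the same direction. Among the 49 large subunit genes, 32 fell and 3 rose with siZIP7_1 (median -0.24) and 37 fell and 7 rose with siZIP7_2 (median -0.47). For the 30 small subunit genes these numbers were 22 and 1 (median -0.29) and 24 and 2 (median -0.55). Symbols and structure do not match entirely: MRPS18A and MRPS30 sit in the large subunit, and MRPS36 is a part of the oxoglutarate dehydrogenase complex rather than of the ribosome. Sorted by structure, 34 of 51 large and 19 of 27 small subunit genes fell with siZIP7_1, and 38 and 22 with siZIP7_2.

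Summed over the genes of a subunit, the large subunit stood at 2493, 2624 and 2521 CPM in siNC, 1986, 2082 and 2029 CPM in siZIP7_1 and 1862, 1861 and 1909 CPM in siZIP7_2. The small subunit stood at 1671, 1721 and 1657 CPM in siNC, 1280, 1339 and 1278 CPM in siZIP7_1 and 1184, 1184 and 1201 CPM in siZIP7_2. In each subunit all 6 siZIP7 libraries were below all siNC libraries, and the siZIP7_2 libraries were the lowest. The sum over all members was 4229 ± 101 CPM in siNC, 3331 ± 80.9 in siZIP7_1 and 3067 ± 37.3 in siZIP7_2 (SD, n = 3), or 78.8% and 72.5% of siNC. CPM are shares of the counted RNA, so a fall here is relative to all other transcripts. Fewer cells that express a gene and less of its RNA per cell cannot be told apart from such values, and total RNA per cell was not measured here.

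The ratio of large to small subunit sums was 1.51 ± 0.018 in siNC, 1.56 ± 0.020 in siZIP7_1 and 1.58 ± 0.010 in siZIP7_2 (SD, n = 3). The siNC libraries lay between 1.49 and 1.52, below all siZIP7 libraries. The siZIP7_1 (1.55 to 1.59) and siZIP7_2 (1.57 to 1.59) libraries overlapped each other. The change against siNC was small, to 103% and 104% of siNC. After division by exonic length the ratio was 1.90 ± 0.013, 2.05 ± 0.035 and 2.16 ± 0.010, so its size depended on how genes were weighted. No p is given for these sums, because the members were picked with results of these data known.

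**Figure D2:**
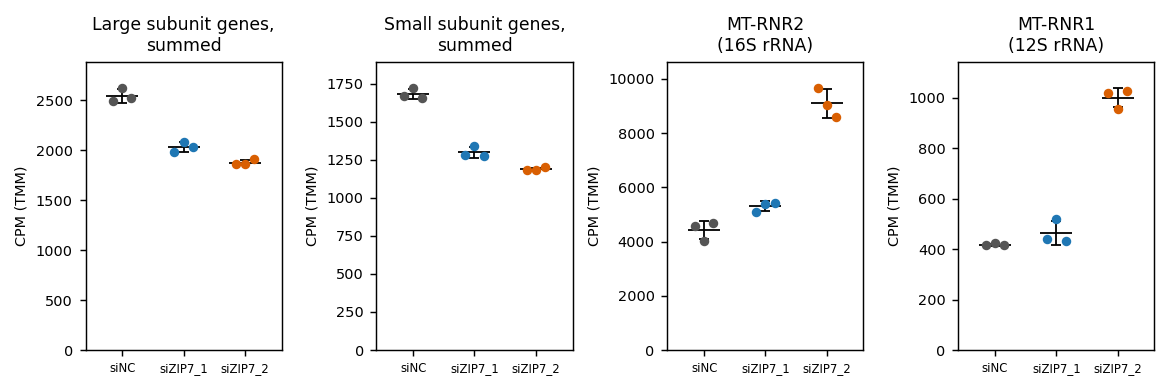
CPM per library (points) in each siRNA group, with mean and SD (n = 3), for the summed large subunit genes, the summed small subunit genes and the rRNAs MT-RNR2 and MT-RNR1. The protein gene sums were below siNC in all siZIP7 libraries, while both rRNAs were highest in siZIP7_2.

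Members were also split by descent. Of 45 members with a homologue in the bacterial ribosome, 32 fell and 2 rose with siZIP7_1 (median -0.24) and 35 fell and 5 rose with siZIP7_2 (median -0.52). Of 29 members without one, 17 fell and 2 rose with siZIP7_1 (median -0.22) and 22 fell and 4 rose with siZIP7_2 (median -0.52). The MRPS18 paralogues, MRPS36 and MRPL58 were placed in neither class.

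The 79 genes lay on 21 chromosomes, and their promoters were searched for shared words, since known regulators of nuclear mitochondrial genes bind short DNA words near the start. RefSeq windows of 300 bases (250 before to 50 after a transcription start, GRCh38.p14) were at hand for 70 of the 79 genes, all but MRPL2, MRPL10, MRPL13, MRPL15, MRPL21, MRPL23, MRPL35, MRPS28 and MRPS36. Words of 4 kinds were searched on both strands, and a gene counted once if any of its windows held the word. The core bound by ETS factors such as GABPA, CCGGAAG, was present for 30 of 70 members (42.9%) and for 12.2% of all 27305 genes with a window. The YY1 core AAGATGGC was present for 21 of 70 members (30%) and for 3.52% of all genes. The NRF1 core GCGCATGCG was found for 3 members (4.29%, against 2.34% of all genes) and the E-box CACGTG for 9 (12.9%, against 8.78%). The 27305 genes were not matched to the members, and they outnumber the 16761 genes tested here. How common these words are among expressed protein-coding genes alone was not counted. The ETS and YY1 words can run into each other over the letters AAG. Of the members, 8 had both the ETS and the YY1 word, and 43 had either of them. In the 8 members with both words, the ETS and YY1 sites did not overlap. Both words occurred in either subunit, the ETS word for 18 of 42 large and 12 of 28 small subunit genes and the YY1 word for 13 of 42 and 8 of 28. A match is only a description of the letters, and binding was not measured here.

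Sites with the ETS word are shown for members that carry the results below, to let the shared letters be seen beside genes that moved in different ways. Each is a stretch of 30 bases written 5′ to 3′ on the strand of the gene, with the word in capitals, which read CTTCCGG where it lies on the opposite strand:
MRPL3, chr3:131502985-131503014, minus strand: tgtaaaacgcaCCGGAAGtgggtccggcgg
MRPL16, chr11:59810766-59810795, minus strand: agtgaacacaaCTTCCGGccccactgagcg
MRPL33, chr2:27771700-27771729, plus strand: cgggccgtgccCCGGAAGcagttgttgttg
MRPS10, chr6:42217865-42217894, minus strand: ccgctgtaaccCCGGAAGcaatcctgagag
MRPS16, chr10:73252621-73252650, minus strand: cggatcatccgCTTCCGGagtcgaggtttt
MRPS33, chr7:141014934-141014963, minus strand: agagggcgggcCTTCCGGgacgagggcgcg

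Of the 22 sites with the YY1 word (capitals), 16 began after the transcription start, the median over all of them was 12 bases into the transcript, and 18 were on the strand of the gene. Of the 40 ETS sites, 34 began before the start and 18 were on the strand of the gene. The YY1 sites of 6 members named below are:
MRPL42, chr12:93467511-93467540, plus strand: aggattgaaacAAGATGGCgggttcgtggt
MRPL45, chr17:38297170-38297199, plus strand: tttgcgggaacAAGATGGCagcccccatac
MRPL50, chr9:101398577-101398606, minus strand: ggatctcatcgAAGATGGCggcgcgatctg
MRPS18B, chr6:30617852-30617881, plus strand: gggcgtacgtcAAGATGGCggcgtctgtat
MRPS24, chr7:43869480-43869509, minus strand: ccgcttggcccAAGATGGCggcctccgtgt
MRPS27, chr5:72320206-72320235, minus strand: tggtacgctccAAGATGGCtgcctccatag

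With siZIP7_2, the median log2 fold change was -0.52 for members with the ETS word and -0.48 for those without it, and -0.57 with and -0.48 without the YY1 word. With siZIP7_1, the medians were -0.25 and -0.30 for the ETS word and -0.36 and -0.21 for the YY1 word. These are descriptions without a test.

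Levels differed widely between members. Per kilobase of exonic length in siNC, MRPL14 (89.4 CPM per kb), MRPS34 (73.1) and MRPL51 (58.3) were the highest, against a median of 17.5 over the members. The lowest were MRPL23 (0.663), MRPL38 (1.35) and MRPS24 (1.38). The length includes exons shared with other genes, 41.1% of it for MRPL38, 23.2% for MRPS24 and 2.86% for MRPL23. Reads on shared exons can go uncounted, and the part of this in the ranks was not tested. MRPL23, a protein of the tunnel exit, had as few as 28 counts in a siZIP7_2 library, at 1.78, 2.11 and 2.03 CPM in siNC, 1.64, 1.99 and 1.95 CPM in siZIP7_1 and 1.203, 1.35 and 1.08 CPM in siZIP7_2. Its log2 fold change was -0.69 (adjusted p = 0.00208, SE 0.19) with siZIP7_2, and -0.08 with siZIP7_1 did not pass (adjusted p = 0.712).

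MRPL14 lies at the interface between the subunits. It was at 83.2, 88.2 and 85.8 CPM in siNC, 85.7, 86.3 and 86.3 CPM in siZIP7_1 and 118, 111 and 127 CPM in siZIP7_2, so siZIP7_1 overlapped siNC and siZIP7_2 was above both. Its log2 fold change with siZIP7_2 was 0.47 (adjusted p = 1.81e-09, SE 0.05), and 0.0064 with siZIP7_1 did not pass (adjusted p = 0.916). MRPS34, a mitochondria-specific protein that binds the small subunit rRNA, was at 76.5, 85.7 and 78.3 CPM in siNC, 80.01, 76.02 and 75.7 CPM in siZIP7_1 and 63.9, 63.6 and 64.7 CPM in siZIP7_2, and its log2 fold change was -0.32 (adjusted p = 1.99e-06, SE 0.05) with siZIP7_2, while -0.05 with siZIP7_1 did not pass (adjusted p = 0.354). MRPL51 was at 85.1, 95.2 and 91.1 CPM in siNC, 81.4, 86.2 and 84.1 CPM in siZIP7_1 and 60.98, 59.7 and 62.4 CPM in siZIP7_2 and fell with siZIP7_2, by a log2 fold change of -0.57 (adjusted p = 4.06e-11, SE 0.05). With siZIP7_1 its value of -0.11 missed the threshold, but passed without siNC replicate 1 (-0.15) or siZIP7_1 replicate 2 (-0.13). MRPL38 was at 5.19, 5.07 and 4.52 CPM in siNC, 3.97, 3.401 and 4.61 CPM in siZIP7_1 and 4.93, 4.902 and 4.92 CPM in siZIP7_2, with 41.1% of its exonic length shared with other genes, and its log2 fold change with siZIP7_1 was -0.30 (adjusted p = 0.0392, SE 0.13). That call was lost without any one of siNC replicate 1, siNC replicate 2, siZIP7_1 replicate 1 or siZIP7_1 replicate 2, where the values lay between -0.19 and -0.29, and among other settings in DESeq2. With siZIP7_2 its value was near 0 and did not pass (adjusted p = 0.995).

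Among large subunit genes, MRPL3 had the deepest fall with siZIP7_1. MRPL3 (ENSG00000114686, chr3:131462212-131502983 on GRCh38) is the homologue of a bacterial protein beside the peptidyl transferase centre. It was at 102, 105 and 101 CPM in siNC, 25.7, 28.4 and 27.5 CPM in siZIP7_1 and 44.6, 52.3 and 50.98 CPM in siZIP7_2. The 3 groups did not overlap, with siZIP7_1 lowest and siZIP7_2 between it and siNC. The log2 fold change was -1.91 (adjusted p = 1.00e-21, SE 0.06) with siZIP7_1 and -1.05 (adjusted p = 3.07e-16, SE 0.06) with siZIP7_2.

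MRPL42, a protein with no bacterial counterpart, was nearly as low with either siRNA. Its levels were 98.8, 119.6 and 119.9 CPM in siNC, 39.04, 45.3 and 39.5 CPM in siZIP7_1 and 38.04, 36.9 and 38.6 CPM in siZIP7_2. Both siZIP7 groups lay below siNC and close to each other, and the difference between them did not pass the threshold (-0.13, adjusted p = 0.0970, SE 0.07). Against siNC the log2 fold change was -1.45 (adjusted p = 7.91e-18, SE 0.07) with siZIP7_1 and -1.57 (adjusted p = 1.38e-18, SE 0.07) with siZIP7_2.

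MRPL24, whose bacterial homologue starts the assembly of the large subunit, fell in steps. It was at 84.05, 88.9 and 82.5 CPM in siNC, 38.6, 40.6 and 37.7 CPM in siZIP7_1 and 24.1, 27.01 and 26.5 CPM in siZIP7_2, and no libraries of different groups overlapped. The log2 fold change was -1.13 (adjusted p = 3.55e-17, SE 0.05) with siZIP7_1 and -1.72 (adjusted p = 5.41e-21, SE 0.06) with siZIP7_2. MRPL1 forms the stalk that guides spent tRNA out of the ribosome. Its values were 32.9, 33.04 and 36.02 CPM in siNC, 19.7, 23.6 and 20.3 CPM in siZIP7_1 and 9.66, 8.59 and 9.61 CPM in siZIP7_2, again in 3 separate steps. MRPL1 changed by -0.68 (adjusted p = 1.25e-09, SE 0.07) on the log2 scale with siZIP7_1 and by -1.88 (adjusted p = 1.72e-18, SE 0.08) with siZIP7_2.

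MRPL45 differed most between the siRNAs among the large subunit genes that fell. This protein holds the ribosome at the inner membrane next to the tunnel exit. It was at 42.5, 43.4 and 42.2 CPM in siNC, 37.3, 38.2 and 35.6 CPM in siZIP7_1 and 14.9, 14.3 and 15.4 CPM in siZIP7_2. The siZIP7_1 libraries were only slightly below siNC (-0.21, adjusted p = 0.00179, SE 0.06), whereas siZIP7_2 was far below it (-1.52, adjusted p = 6.17e-19, SE 0.06). With library size alone as the scale the value with siZIP7_1 was -0.12 and did not pass. MRPL45 pseudogenes took 3.36% as many reads as the gene itself, so some of its reads could be placed on a copy.

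MRPL16, which contacts tRNA in the large subunit, was at 50.7, 52.4 and 47.7 CPM in siNC, 24.6, 24.7 and 26.1 CPM in siZIP7_1 and 31.2, 31.6 and 29.7 CPM in siZIP7_2. It was lower with siZIP7_1 (-0.997, adjusted p = 3.31e-15, SE 0.06) than with siZIP7_2 (-0.70, adjusted p = 5.25e-12, SE 0.06), and the direct comparison of the siRNAs gave 0.29 (adjusted p = 7.14e-05, SE 0.06). MRPL58 is a peptidyl-tRNA hydrolase built into the large subunit that frees stalled ribosomes. Its values were 37.6, 38.5 and 38.3 CPM in siNC, 29.5, 31.2 and 31.7 CPM in siZIP7_1 and 22.7, 23.5 and 22.9 CPM in siZIP7_2, without overlap between groups, and the log2 fold change was -0.31 (adjusted p = 2.34e-05, SE 0.06) with siZIP7_1 and -0.73 (adjusted p = 4.02e-12, SE 0.06) with siZIP7_2. MRPL12, the stalk protein that recruits translation factors, was added after its values were seen because 68.2% of its exonic length is shared with another annotated gene, AC139530.2, which was at 0 counts in every library. The counts of MRPL12 therefore come from its remaining exonic length. It was at 36.1, 38.8 and 35.8 CPM in siNC, 29.2, 27.5 and 27.5 CPM in siZIP7_1 and 16.3, 18 and 17.6 CPM in siZIP7_2, with a log2 fold change of -0.39 (adjusted p = 1.57e-06, SE 0.06) and -1.09 (adjusted p = 3.84e-15, SE 0.06).

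A few large subunit genes rose. MRPL34 (chr19:17292609-17306843 on GRCh38), a small basic protein with a bacterial homologue, was higher with both siRNAs. It was at 41.2, 45.2 and 41.8 CPM in siNC, 78.3, 80.6 and 84.3 CPM in siZIP7_1 and 85.4, 78.6 and 85.4 CPM in siZIP7_2, so all 6 siZIP7 libraries exceeded every siNC library. The fold change on the log2 scale was 0.93 (adjusted p = 3.24e-15, SE 0.05) with siZIP7_1 and 0.96 (adjusted p = 1.16e-15, SE 0.05) with siZIP7_2, and the difference between siRNAs was 0.04 (adjusted p = 0.538, SE 0.05). MRPL33 was at 51.3, 47.9 and 54.4 CPM in siNC, 54.4, 62.2 and 59.6 CPM in siZIP7_1 and 80.3, 75.7 and 82.2 CPM in siZIP7_2. It rose by 0.20 (adjusted p = 0.00351, SE 0.06) with siZIP7_1 and by 0.63 (adjusted p = 5.15e-11, SE 0.06) with siZIP7_2 on the log2 scale, while its neighbour BABAM2, which shares sense exons with it, was at 33.3, 31.3 and 33.4 CPM in siNC and 19.5, 19.6 and 19.5 CPM in siZIP7_2. The lowest siZIP7_1 library of MRPL33 was at the level of the highest siNC library. MRPL41, specific to mitochondria, rose from 48.6, 58.8 and 49.9 CPM in siNC to 63.3, 63.03 and 62.5 in siZIP7_1 and 67.1, 65.4 and 66.6 in siZIP7_2, with log2 fold changes of 0.27 (adjusted p = 1.77e-04, SE 0.06) and 0.34 (adjusted p = 4.92e-06, SE 0.06). The rises of MRPL33 and MRPL41 with siZIP7_1 did not pass when a change had to exceed 1.2-fold.

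**Figure D3:**
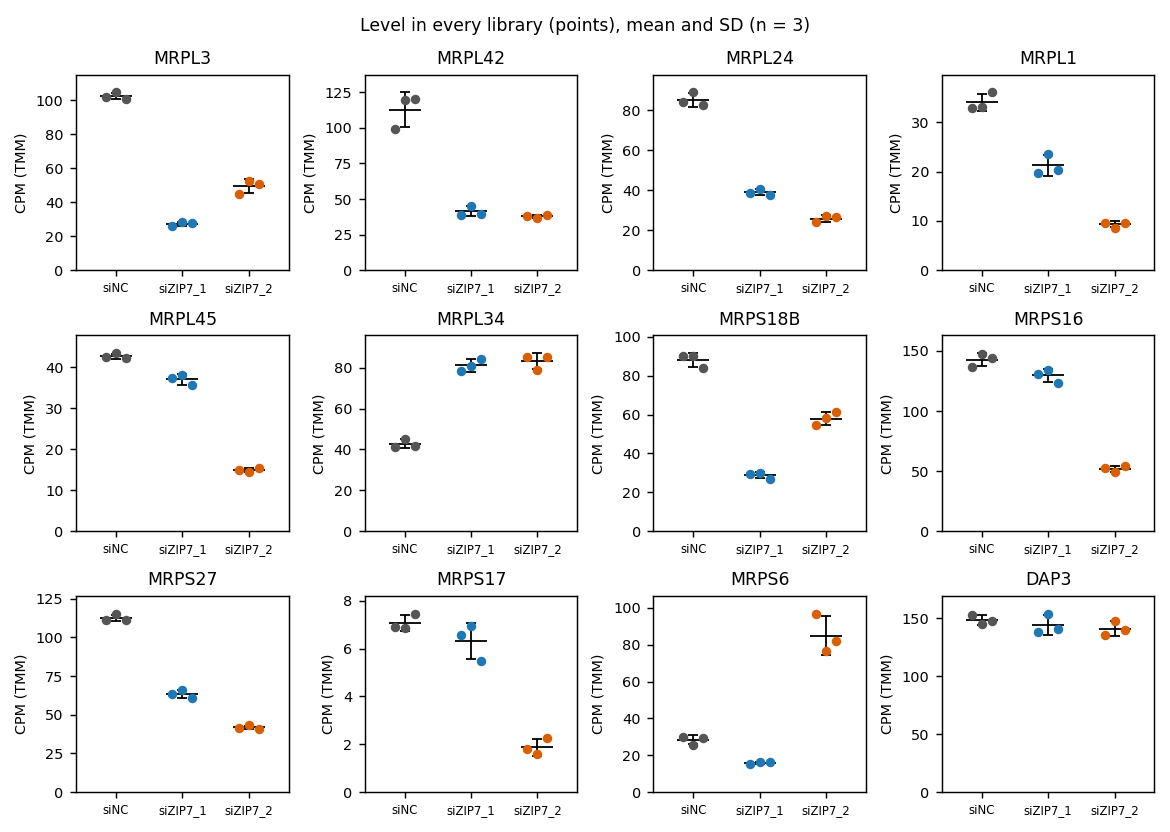
CPM in every library (points) with mean and SD (n = 3) for 12 members in siNC (grey), siZIP7_1 (blue) and siZIP7_2 (orange), each axis starting at 0. MRPL3 and MRPS18B were lowest with siZIP7_1, MRPL45, MRPS16 and MRPS17 fell mainly with siZIP7_2, MRPL34 rose with both, MRPS6 moved in opposite directions, and the groups of DAP3 overlapped.

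Among small subunit genes, the MRPS18 paralogues took separate courses. They descend from the gene of one bacterial protein, but MRPS18A sits in the large subunit, and MRPS18B and MRPS18C at different places in the small one. MRPS18B (chr6:30617709-30626395 on GRCh38) was at 90.1, 90.1 and 84.2 CPM in siNC, 29.5, 30.1 and 27.1 CPM in siZIP7_1 and 54.5, 58.2 and 61.1 CPM in siZIP7_2, in 3 groups without overlap, and its log2 fold change was -1.61 (adjusted p = 2.60e-20, SE 0.06) with siZIP7_1 and -0.60 (adjusted p = 3.56e-11, SE 0.05) with siZIP7_2. MRPS18A was at 42.4, 41.2 and 42.5 CPM in siNC, 31.5, 33.8 and 31.7 CPM in siZIP7_1 and 43.3, 42.5 and 43.1 CPM in siZIP7_2. It fell with siZIP7_1 (-0.38, adjusted p = 5.23e-07, SE 0.05) and did not pass with siZIP7_2 (0.03, adjusted p = 0.607, SE 0.05), except with upper-quartile factors (0.14).

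MRPS18C was at 24.7, 30.3 and 30.1 CPM in siNC, 18.9, 20.8 and 20.3 CPM in siZIP7_1 and 20.3, 18.9 and 20.4 CPM in siZIP7_2. Its log2 fold changes were -0.50 (adjusted p = 7.58e-07, SE 0.07) and -0.51 (adjusted p = 4.63e-07, SE 0.08), and the siRNAs did not differ detectably (-0.01, adjusted p = 0.879, SE 0.08). Other genes on the opposite strand, ABRAXAS1 and RSPH9, cover 40.2% of the exonic length of MRPS18C and 47.04% of that of MRPS18A, so their reads are uncertain where the counting did not use strand.

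DAP3, the GTP-binding protein of the small subunit, also known from apoptosis, did not pass the threshold with either siRNA. It was at 153, 145 and 147 CPM in siNC, 138, 153 and 140.2 CPM in siZIP7_1 and 135, 148 and 139.9 CPM in siZIP7_2, and the 3 groups overlapped. The log2 fold change was -0.04 (adjusted p = 0.434, SE 0.05) with siZIP7_1 and -0.07 (adjusted p = 0.177, SE 0.05) with siZIP7_2, and a p above the threshold does not show that the level was the same. Without a low-count filter the value with siZIP7_2 was -0.13 and passed.

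MRPS7 and MRPS15, both homologues of bacterial proteins that bind the small subunit rRNA early in assembly, were lower with both siRNAs. MRPS7 was at 108, 107 and 103 CPM in siNC, 50.4, 55.7 and 51.6 CPM in siZIP7_1 and 59.8, 59.2 and 63.3 CPM in siZIP7_2, with log2 fold changes of -1.01 (adjusted p = 1.14e-16, SE 0.05) and -0.80 (adjusted p = 1.68e-14, SE 0.05). MRPS15 was at 59.7, 61.7 and 60.8 CPM in siNC, 32.1, 32.1 and 35.1 CPM in siZIP7_1 and 28.3, 27.9 and 28.1 CPM in siZIP7_2, with -0.87 (adjusted p = 1.28e-14, SE 0.05) and -1.11 (adjusted p = 6.78e-17, SE 0.06). MRPS27, an RNA-binding protein of the pentatricopeptide repeat kind, was lowest with siZIP7_2. It stood at 112, 115 and 111 CPM in siNC, 63.7, 66.1 and 60.8 CPM in siZIP7_1 and 41.3, 43.1 and 41.1 CPM in siZIP7_2, and its log2 fold changes were -0.83 (adjusted p = 3.55e-15, SE 0.05) and -1.43 (adjusted p = 2.16e-20, SE 0.05).

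A set of small subunit genes fell mainly with siZIP7_2. MRPS16 (chr10:73248843-73252693 on GRCh38), needed for stable small subunits, was at 137, 148 and 144 CPM in siNC, 131, 134 and 124 CPM in siZIP7_1 and 52.3, 49.4 and 53.9 CPM in siZIP7_2. Its log2 fold change was -0.14 (adjusted p = 0.0126, SE 0.05) with siZIP7_1 and -1.46 (adjusted p = 2.12e-20, SE 0.05) with siZIP7_2, and the siRNAs differed by -1.32 (adjusted p = 1.25e-19, SE 0.05). The small fall with siZIP7_1 did not pass without siNC replicate 2 (-0.11), siNC replicate 3 (-0.12) or siZIP7_1 replicate 3 (-0.10), nor with library size alone as the scale (-0.05). Other genes, DNAJC9 on the same strand among them, overlap 14.9% of the exonic length of MRPS16. The log2 fold change of DNAJC9 was -0.40 with siZIP7_1 and -0.58 with siZIP7_2. The part of shared exons in the MRPS16 result was not tested. MRPS10, another protein with a bacterial homologue, was at 85.8, 87.6 and 88.4 CPM in siNC, 67.1, 75.5 and 68.96 CPM in siZIP7_1 and 39.8, 38.1 and 39.6 CPM in siZIP7_2. It changed by -0.31 (adjusted p = 4.35e-06, SE 0.05) and -1.16 (adjusted p = 1.01e-17, SE 0.05) on the log2 scale. MRPS33, specific to mitochondria, was at 13.4, 15.5 and 16.2 CPM in siNC, 15.2, 16.04 and 17 CPM in siZIP7_1 and 6.06, 6.32 and 7.84 CPM in siZIP7_2: siZIP7_1 overlapped siNC (0.10, adjusted p = 0.296, SE 0.09) and siZIP7_2 lay below both (-1.16, adjusted p = 1.41e-11, SE 0.10).

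MRPS17, an rRNA-binding protein with a bacterial homologue, had the deepest fall with siZIP7_2 but low counts. It was at 6.898, 6.87 and 7.44 CPM in siNC, 6.56, 6.94 and 5.49 CPM in siZIP7_1 and 1.79, 1.58 and 2.27 CPM in siZIP7_2, with no fewer than 46 counts in a siZIP7_2 library. On the log2 scale it changed by -1.92 (adjusted p = 6.90e-13, SE 0.14) with siZIP7_2 and -0.17 (adjusted p = 0.203, SE 0.12) with siZIP7_1. Other annotated genes, NIPSNAP2 among them, share 27% of its exonic length on the same strand, and NIPSNAP2 itself was at 42.2, 44.2 and 48.7 CPM in siNC, 42.4, 45 and 40.8 CPM in siZIP7_1 and 20.4, 22.1 and 19.9 CPM in siZIP7_2. The part of shared exons in the result was not tested.

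Several members moved in opposite directions with the siRNAs. MRPS6 (chr21:34073224-34143034 on GRCh38), a homologue of a bacterial small subunit protein, was at 30.1, 25.5 and 29.4 CPM in siNC, 15, 16.2 and 16.3 CPM in siZIP7_1 and 96.6, 76.5 and 81.8 CPM in siZIP7_2. It was lowest in siZIP7_1 and highest in siZIP7_2, without overlap between groups. The log2 fold change was -0.84 (adjusted p = 2.90e-10, SE 0.08) with siZIP7_1 and 1.58 (adjusted p = 8.13e-18, SE 0.07) with siZIP7_2, and the siRNAs differed by 2.42 (adjusted p = 8.32e-22, SE 0.08). SLC5A3, a transporter of myo-inositol that lies within the MRPS6 locus, was at 39.9, 38.5 and 44.2 CPM in siNC, 26.7, 25.8 and 23.7 CPM in siZIP7_1 and 123, 114 and 121 CPM in siZIP7_2, with log2 fold changes of -0.69 and 1.54. Whether reads of one gene were counted on the other was not tested.

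MRPS24 is the mitochondrial form of a protein at the mRNA entrance of the small subunit. It was at 3.92, 3.52 and 3.35 CPM in siNC, 1.09, 1.17 and 1.098 CPM in siZIP7_1 and 10.6, 9.903 and 10.8 CPM in siZIP7_2, or at least 30 counts per library. On the log2 scale it changed by -1.68 (adjusted p = 1.53e-10, SE 0.16) with siZIP7_1 and 1.53 (adjusted p = 3.03e-13, SE 0.11) with siZIP7_2, and the siRNAs differed by 3.21 (adjusted p = 6.25e-19, SE 0.13). The readthrough gene URGCP-MRPS24 covers 23.2% of its exonic length, including all exons but the first of its main transcript, and was at 0 counts in every library, so these levels rest on the remaining part. URGCP, the upstream gene of that readthrough, was at 43.5, 44.2 and 40.6 CPM in siNC, 51.4, 48.98 and 47.4 in siZIP7_1 and 68.7, 72.05 and 71.1 in siZIP7_2.

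MRPL50, specific to mitochondria, was at 17.1, 17.7 and 19.2 CPM in siNC, 14.1, 13.4 and 13.4 CPM in siZIP7_1 and 30.3, 29.02 and 30.2 CPM in siZIP7_2. It fell with siZIP7_1 (-0.40, adjusted p = 1.49e-05, SE 0.07) and rose with siZIP7_2 (0.73, adjusted p = 5.61e-11, SE 0.07). MRPL44, which has a fold like that of RNase III, and MRPL54 did the same on a smaller scale and were chosen after their values were seen. MRPL44 was at 27.5, 25.4 and 27.2 CPM in siNC, 20.1, 21.6 and 20.9 CPM in siZIP7_1 and 32.3, 29.7 and 30.7 CPM in siZIP7_2, with log2 fold changes of -0.36 (adjusted p = 1.55e-05, SE 0.06) and 0.21 (adjusted p = 0.00353, SE 0.06), the latter lost without a low-count filter (0.16). MRPL54 was at 22.4, 24.3 and 22.8 CPM in siNC, 18.1, 21.5 and 20.1 CPM in siZIP7_1 and 30.2, 26.5 and 28.7 CPM in siZIP7_2, with -0.22 (adjusted p = 0.00937, SE 0.07) and 0.30 (adjusted p = 4.20e-04, SE 0.07). Its fall with siZIP7_1 did not pass without siNC replicate 2 (-0.18) or siZIP7_1 replicate 1 (-0.15), nor with library size alone (-0.13). When a change had to exceed 1.2-fold, MRPL44 did not pass with siZIP7_2 and MRPL54 with neither siRNA.

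MRPS31 was the one small subunit gene that rose with siZIP7_1 and the one member that rose with it and fell with siZIP7_2. Its values were 14.9, 15.3 and 15.7 CPM in siNC, 18.6, 19.96 and 16.3 CPM in siZIP7_1 and 11.2, 11.97 and 11.5 CPM in siZIP7_2. The log2 fold changes were 0.26 (adjusted p = 0.00459, SE 0.08) and -0.40 (adjusted p = 8.12e-05, SE 0.08), the former lost when a change had to exceed 1.2-fold. Pseudogenes of MRPS31 took 6.42% as many reads as the gene, the highest share among the 35 members with named pseudogenes. The summary lines of the counts list 0 reads as not uniquely aligned, so reads matching gene and copy alike cannot be seen. The share therefore does not measure how uncertain the counts of MRPS31 are.

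Compared directly, siZIP7_2 against siZIP7_1, 41 members were lower and 21 higher with siZIP7_2, and 17 did not pass. The median was -0.15, but -0.070 under upper-quartile factors and -0.099 where genes needed a minimum of 10 counts per library. Among all genes 78.7% passed in this comparison, 40.6% lower and 38.1% higher, and their median was -0.02. For the large subunit 25 were lower and 15 higher with siZIP7_2, and for the small subunit 16 and 6. The share of members that passed, 78.5%, was close to that of all genes.

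Both rRNAs of the mitochondrial ribosome rose while most of its protein genes fell. MT-RNR1, the rRNA of the small subunit, was at 414, 422 and 416 CPM in siNC, 439, 519.9 and 433 CPM in siZIP7_1 and 1018, 955 and 1025 CPM in siZIP7_2, and its log2 fold change was 0.15 (adjusted p = 0.0174, SE 0.06) with siZIP7_1 and 1.26 (adjusted p = 5.17e-18, SE 0.06) with siZIP7_2. MT-RNR2, the rRNA of the large subunit, was at 4567, 4028 and 4669 CPM in siNC, 5105, 5376 and 5436 CPM in siZIP7_1 and 9663, 9028 and 8587 CPM in siZIP7_2, with 0.26 (adjusted p = 1.93e-04, SE 0.06) and 1.04 (adjusted p = 9.33e-16, SE 0.06). The siZIP7_2 means were 239% of siNC for MT-RNR1 and 206% for MT-RNR2. The smaller rise of MT-RNR1 with siZIP7_1 rested on one library: without siZIP7_1 replicate 2 it was 0.06, and without siNC replicate 1 it was 0.14, and neither passed. How the libraries selected RNA is not given in the labels, and rRNA levels can depend on that step.

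The 13 mRNAs of the mitochondrial genome, the templates of this ribosome, did not fall together either. With siZIP7_1, 6 rose and 3 fell (median 0.01). The share that passed, 69.2%, was near the 70.7% of all tested genes, and with siZIP7_2 it was 92.3%, against 77.8%. The falls were MT-CO1 (-0.45, adjusted p = 1.62e-07, SE 0.06), MT-CO3 and MT-CYB, the latter pair lost without siNC replicate 3 (-0.18 and -0.11), MT-CYB also without siZIP7_1 replicate 1 (-0.14) and MT-CO3 in DESeq2 (-0.23). With library size alone MT-CO3 (-0.14) and MT-CYB (-0.081) did not pass. MT-ND2 had the largest rise (0.37, adjusted p = 9.52e-07, SE 0.06). With siZIP7_2, 12 rose and 0 fell by edgeR (median 0.36), with 0 lower also at an unadjusted p under 0.05 and in DESeq2, again with MT-ND2 first (0.52, adjusted p = 1.42e-09, SE 0.06).

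Of 4 ribosome subunits with other symbols, GADD45GIP1 (also CRIF1) and PTCD3 changed, and AURKAIP1 and CHCHD1 did not pass in either comparison. The share that passed, 50% with each siRNA, was below the 70.7% and 77.8% of all tested genes. GADD45GIP1, at the tunnel exit, was at 153, 175 and 158 CPM in siNC, 101, 106 and 103 CPM in siZIP7_1 and 132, 142 and 143 CPM in siZIP7_2, with log2 fold changes of -0.65 (adjusted p = 3.67e-12, SE 0.05) and -0.22 (adjusted p = 3.23e-04, SE 0.05). PTCD3, a pentatricopeptide repeat protein of the small subunit, was at 121, 115 and 122 CPM in siNC, 146, 148 and 149 CPM in siZIP7_1 and 82.9, 86.4 and 79.4 CPM in siZIP7_2. It rose with siZIP7_1 (0.31, adjusted p = 7.94e-07, SE 0.05) and fell with siZIP7_2 (-0.52, adjusted p = 5.35e-11, SE 0.05). When a change had to exceed 1.2-fold, the rise of PTCD3 and the fall of GADD45GIP1 with siZIP7_2 did not pass.

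The 30 listed assembly factors take part in building the mitochondrial ribosome, some of them by modifying its rRNAs. With siZIP7_1, 13 of 30 fell and 6 rose (median -0.11), and with siZIP7_2, 26 fell and 3 rose (median -0.51). Thus 43.3% fell and 20% rose with siZIP7_1, against 35.9% and 34.8% of all tested genes. For siZIP7_2 these shares were 86.7% and 10%, against 39.3% and 38.5%. MRM1, a methyltransferase of the large subunit rRNA, was at 16.1, 14.9 and 15.1 CPM in siNC, 6.52, 5.46 and 6.81 CPM in siZIP7_1 and 5.47, 4.44 and 4.65 CPM in siZIP7_2, with -1.29 (adjusted p = 7.82e-13, SE 0.10) and -1.67 (adjusted p = 6.57e-15, SE 0.10). RPUSD3, a pseudouridine synthase, was at 46.7, 44.1 and 43 CPM in siNC, 67.3, 67.3 and 68.7 CPM in siZIP7_1 and 17.4, 17.3 and 15.8 CPM in siZIP7_2. It rose with siZIP7_1 (0.60, adjusted p = 3.33e-11, SE 0.05) and fell with siZIP7_2 (-1.405, adjusted p = 2.22e-18, SE 0.06). TFB1M, which dimethylates the small subunit rRNA, followed the same course at 7.73, 8.72 and 7.26 CPM in siNC, 10.2, 10.2 and 10.2 CPM in siZIP7_1 and 2.68, 3.29 and 3.61 CPM in siZIP7_2, with 0.37 (adjusted p = 0.00133, SE 0.10) and -1.299 (adjusted p = 6.26e-11, SE 0.12). The rise of TFB1M did not pass when a change had to exceed 1.2-fold. C1QBP fell with both, by 0.70 with siZIP7_1 (adjusted p = 1.22e-13, SE 0.05) and by 0.79 with siZIP7_2 (adjusted p = 8.00e-15, SE 0.05) on the log2 scale.

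The 17 listed translation factors start, extend and end the chains that this ribosome makes, or stabilise its mRNAs. With siZIP7_1, 8 rose and 3 fell (median 0.10), and with siZIP7_2, 1 rose and 12 fell (median -0.51). Thus 47.1% rose and 17.6% fell with siZIP7_1, against 34.8% and 35.9% of all tested genes. For siZIP7_2 these shares were 5.88% and 70.6%, against 38.5% and 39.3%. Compared directly, 12 of the 17 were lower with siZIP7_2 than with siZIP7_1 and 0 were higher by edgeR, also at an unadjusted p under 0.05 and in DESeq2 (median -0.71). The elongation factor GFM1 was at 68.9, 67.8 and 69.4 CPM in siNC, 68.03, 80.2 and 72.1 CPM in siZIP7_1 and 29.2, 31.6 and 31.9 CPM in siZIP7_2, and its log2 fold change with siZIP7_2 was -1.15 (adjusted p = 1.59e-16, SE 0.06), while 0.096 with siZIP7_1 did not pass (adjusted p = 0.123). LRPPRC, which keeps mitochondrial mRNAs stable, was at 311, 307 and 305 CPM in siNC, 266, 292 and 261 CPM in siZIP7_1 and 129, 154 and 146 CPM in siZIP7_2, with -0.17 (adjusted p = 0.00595, SE 0.05) and -1.103 (adjusted p = 8.15e-17, SE 0.06). With library size alone the first of these was -0.08 and did not pass. The release factor MTRF1L was the one that rose with both siRNAs, from 9.04, 8.51 and 9.72 CPM in siNC to 13.8, 15.6 and 14.1 CPM in siZIP7_1 and 14.7, 16.7 and 14.5 CPM in siZIP7_2.

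Of 5 factors that transcribe mitochondrial DNA, 3 fell and 0 rose with siZIP7_1 by edgeR (0 at an unadjusted p under 0.05 and 0 in DESeq2), and 1 fell and 1 rose with siZIP7_2. The shares that passed, 60% and 40%, were below the 70.7% and 77.8% of all tested genes. Of the falls with siZIP7_1, those of TFAM (-0.16) and MTERF1 (-0.30) did not pass with library size alone (-0.069 and -0.21), and that of TFAM also not without siNC replicate 2 (-0.13), siNC replicate 3 (-0.11), siZIP7_1 replicate 1 (-0.13) or siZIP7_1 replicate 3 (-0.12). TFB2M fell with both (-0.80, adjusted p = 5.35e-11, SE 0.07 with siZIP7_1, and -0.50, adjusted p = 3.08e-07, SE 0.07 with siZIP7_2), and the RNA polymerase POLRMT rose with siZIP7_2 (0.44, adjusted p = 1.49e-08, SE 0.05) and did not pass with siZIP7_1 (-0.046, adjusted p = 0.458).

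The factors whose words were searched in the promoters belong to a list of 10 regulators of nuclear mitochondrial genes, of which 7 fell and 2 rose with siZIP7_1 and 6 fell and 1 rose with siZIP7_2. The shares of the list that passed were 90% and 70%, against 70.7% and 77.8% of all tested genes. Falls made up 70% and 60% of the list, against 35.9% and 39.3% of all genes. GABPA itself fell by 0.46 with siZIP7_1 and by 0.58 with siZIP7_2 on the log2 scale (adjusted p = 6.89e-06 and 1.40e-07), and NRF1 fell by 0.70 and by 0.39 (adjusted p = 7.92e-10 and 1.38e-05). MYC, which binds the E-box, fell by 0.38 and by 0.47 (adjusted p = 2.05e-08 and 3.14e-10). GABPB2, a partner of the ETS factor GABPA, was at 19.4, 17.4 and 19.8 CPM in siNC, 5.54, 5.67 and 6.53 CPM in siZIP7_1 and 5.08, 6.09 and 5.38 CPM in siZIP7_2, with -1.67 (adjusted p = 9.01e-16, SE 0.09) and -1.77 (adjusted p = 3.37e-16, SE 0.09). GABPB1, the other partner, fell with siZIP7_1 (-0.81, adjusted p = 3.15e-12, SE 0.06) and did not pass with siZIP7_2 (-0.041, adjusted p = 0.547). PPRC1, a coactivator of NRF1, was at 214, 213 and 196 CPM in siNC, 82.9, 81.3 and 82.9 CPM in siZIP7_1 and 92.96, 88.3 and 91.7 CPM in siZIP7_2, with -1.33 (adjusted p = 2.74e-20, SE 0.05) and -1.19 (adjusted p = 3.47e-19, SE 0.05). YY1 rose with siZIP7_2 (0.20, adjusted p = 5.98e-04, SE 0.05) and did not pass with siZIP7_1 (-0.047, adjusted p = 0.411). The rise of YY1 was lost when a change had to exceed 1.2-fold. PPARGC1A rose with siZIP7_1 (1.01, adjusted p = 3.44e-08, SE 0.13) and did not pass with siZIP7_2 (0.027, adjusted p = 0.870). Levels of mRNA do not measure the activity of these proteins, and their part in the members' levels was not tested.

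Among genes for proteins of the cytosolic ribosome, 85 were tested, of which 75 fell and 3 rose with siZIP7_1 (median -0.41), and 80 fell and 1 rose with siZIP7_2 (median -0.84). Of 79 tested nuclear genes for subunits of oxidative phosphorylation, 34 fell and 15 rose with siZIP7_1 (median -0.07), and 50 fell and 12 rose with siZIP7_2 (median -0.32). By these medians and counts the members lay between both groups, which is a description and not a test. Over all tested genes, 35.9% fell and 34.8% rose with siZIP7_1, and 39.3% fell and 38.5% rose with siZIP7_2.

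**Figure D4:**
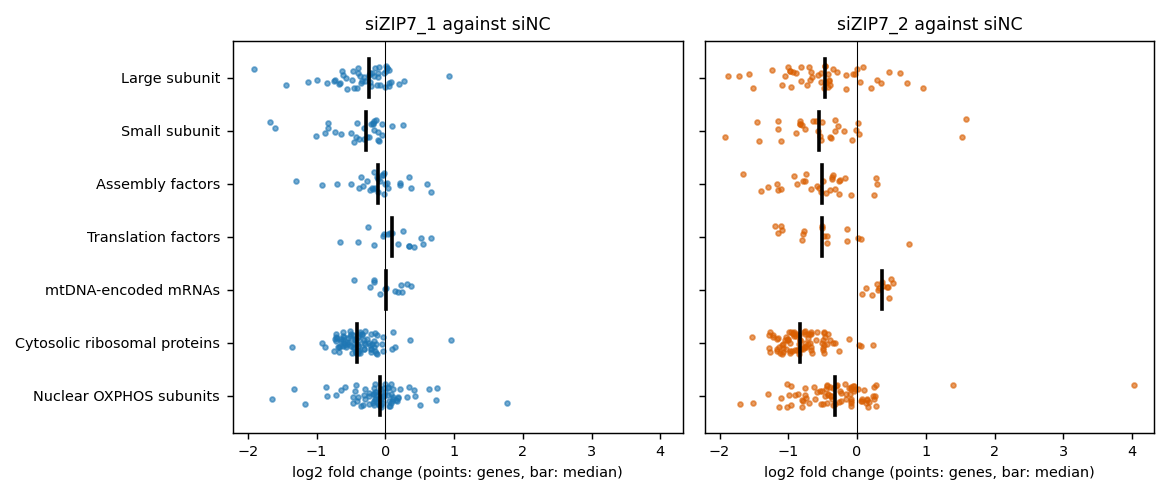
Log2 fold change against siNC of single genes (points) in 7 groups, with the median of each as a black bar, for siZIP7_1 (left) and siZIP7_2 (right) on one scale. With siZIP7_2 the medians were -0.47 and -0.55 for the large and small subunit, -0.84 for cytosolic ribosomal proteins and 0.36 for mRNAs of mitochondrial DNA.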

How the data were processed

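Total RNA was extracted, and the 9 libraries made from it were sequenced as single reads. The authors deposited, library by library, the unnormalized counts of reads on Ensembl genes. The submitters' processing notes list Trim Galore 0.4.1, FastQC 0.11.2, STAR, HTSeq 0.6.1 and DESeq2 1.16.1. The genome build, the annotation and the strand setting of the counting are not given in the sources used here. The summary lines that end each table of counts, with 7.43% to 11.5% of reads outside annotated genes, were left out of library sizes and tests.

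GENCODE release 29 matched 58275 of 58395 identifiers and gave symbols, positions on GRCh38 and exonic lengths. Groups came from the sample labels. The tests used edgeR 4.0.16 under R 4.3.3 (TMM, filterByExpr, which left 16761 genes, and one quasi-likelihood fit with 3 groups and 6 residual degrees of freedom). The threshold was an adjusted p of 0.05. The fit was also run on simulated counts in which 200 genes were changed in the siZIP7_1 group alone. Far more genes were called in the real data, so that run cannot show how the fit behaves there. The comparisons were each siZIP7 siRNA against siNC and siZIP7_2 against siZIP7_1. Within groups, pairs of libraries differed by more than sampling noise (chi-square per gene 2.49 to 6.54 over 9 pairs), so none was taken as a library deposited more than once, which does not show that they are independent cultures.

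The members and all gene lists were chosen with earlier results of these data known. The named members were DAP3, the MRPS18 paralogues and MRPL58, then for each siRNA and subunit up to 4 with the largest fall and 3 with the largest rise, 4 in each direction between siRNAs, and 3 each of the highest and lowest level per length. Up to 3 genes in each direction were named from each pathway list, of which the text gives a selection. Alternatives were DESeq2 1.42.0, its size factors in edgeR, upper-quartile factors, library size alone, a minimum of 10 counts in all libraries or no filter, a replicate block, a fit to each pair of groups, a test against a 1.2-fold change, members with at most 10% of exonic length overlapped, and each library left out. Promoter windows came from RefSeq (GRCh38.p14).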

Additional observations from a re-analysis of the deposited data

Results flagged for a closer look

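For 6 members the siRNAs moved the level in opposite directions against siNC, each past the threshold. How many of all genes did so was not counted, though 70.7% of them passed with siZIP7_1 and 77.8% with siZIP7_2. Members picked in this way differ between the siRNAs from the outset, so the direct comparison of siZIP7_2 with siZIP7_1 by edgeR adds no support. The log2 difference was 3.21 for MRPS24 (adjusted p = 6.25e-19), 2.42 for MRPS6 (adjusted p = 8.32e-22), 1.13 for MRPL50 (adjusted p = 4.13e-15), 0.57 for MRPL44 (adjusted p = 3.33e-09) and 0.51 for MRPL54 (adjusted p = 1.71e-07), all higher with siZIP7_2 in 3 of 3 libraries. MRPS31 went the other way, at -0.66 (adjusted p = 1.84e-08). When each change against siNC had to exceed 1.2-fold, MRPS31 (0.26 with siZIP7_1), MRPL44 (0.21 with siZIP7_2) and MRPL54 (-0.22 and 0.30) lost a call.

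Outside the counts on genes, the share of reads that met no annotated gene was on average 8.95% in siZIP7_1 and 10.8% in siZIP7_2, against 7.81% in siNC. The siNC libraries ranged from 7.43% to 8.28%, which the siZIP7_1 libraries (7.80% to 9.62%) overlapped and the siZIP7_2 libraries (9.99% to 11.5%) did not. Its part in the members' levels was not tested.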

How the results depend on the processing

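The direction of the members' medians held under all alternatives run. Against a 1.2-fold change, 34 members were lower and 1 higher with siZIP7_1 (21 large and 13 small subunit genes lower), and 29 were lower and 12 higher with siZIP7_2 than with siZIP7_1, where 32.3% and 30.7% of all genes were. Calls lost in this test included MRPL33, MRPL38, MRPL41, MRPL45, MRPL58, MRPS10, MRPS16, PTCD3, TFB1M, LRPPRC, MT-RNR1 and MT-RNR2 with siZIP7_1. Those of MRPS34, GADD45GIP1 and YY1 with siZIP7_2 were lost too. Of the 53 members with at most 10% overlap, 39 were lower and 2 higher with siZIP7_1 and 43 lower and 5 higher with siZIP7_2. Members above that limit include MRPL51 (31.3%), MRPS16 (14.9%), MRPL34 (13.2%), MRPL44 (12.9%) and MRPS7 (10.8%). With library size alone the median was -0.18 with siZIP7_1 and -0.21 between siRNAs. Upper-quartile factors gave -0.41 with siZIP7_2 and -0.070 between siRNAs, and moved the median of all genes with siZIP7_2 by 0.11, to 0.10. Without a low-count filter the medians were -0.57 and -0.20, and with a minimum of 10 counts for each library -0.45 and -0.10. The log2 change of the ratio of large to small subunit was 0.11 and 0.19 per exonic length and 0.027 and 0.082 by place in the structure, against 0.05 and 0.06.

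Leaving out one library in turn gave 45 to 54 members lower with siZIP7_1 and 59 to 61 with siZIP7_2. Libraries of the same replicate number did not deviate together (r between -0.05 and 0.08), and the main fit did not pair them. This check cannot show whether they were prepared together. With a replicate block, 54 and 61 members were lower, as without it.

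Values near 0 changed sign. These were DAP3 with siZIP7_1 (0.043, library size alone) and siZIP7_2 (0.033, upper-quartile factors, and 0.000964, at least 10 counts), MRPS18A with siZIP7_2 (-0.021, no filter), MRPL23 with siZIP7_1 (0.011, library size alone, and -0.15 to 0.00320 with one library left out), MRPS34 with siZIP7_1 (0.036, library size alone, and -0.089 to 0.00243) and MRPL14 with siZIP7_1 (-0.018 to 0.033 with one library left out). MRPL38 with siZIP7_2, at -0.0011, became 0.032 with DESeq2's size factors, 0.031 with library size alone, 0.105 with upper-quartile factors, 0.073 with at least 10 counts, 0.00292 with the replicate block, 0.00878 in the pair of groups, 0.016 in DESeq2, and -0.057 to 0.032 with one library left out. The cause was not tested. Members with under 100 counts in some library, 6 in all, are the least precise.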
